A study of Hordeum vulgare subsp. vulgare with 8 samples.

Results

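In the germinating barley embryo, most genes with an alternative splice site had 1 such event, while a small set had many. The lists of alternative 3′ splicing (A3S) and alternative 5′ splicing (A5S) of 8 libraries were pooled, and an event was defined by its type, its gene and the start and end of its 3 exons. The 193 genes with at least 5 distinct events, of 4634 genes listed in all, are described here and are called multi-event genes. They held 1159 of 8325 distinct events (13.9%) and 2628 of 15995 listings, where a listing is 1 event in 1 library (16.4%). The event numbers chose these genes, so their totals are given as a description and were not tested. Their split between the times is compared below with that limit.

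An intron is removed between a donor, the splice site at the end of the upstream exon, and an acceptor, the splice site at the start of the downstream exon. In A3S the same donor is joined to a different acceptor, and in A5S the same acceptor is joined to a different donor, so that an exon becomes longer or shorter. A change in exon length that is not a multiple of 3 nt shifts the reading frame, and plant transcripts with such a shift are often targets of nonsense-mediated decay. Genes of splicing factors and other RNA-binding proteins are known in plants for several alternative forms.

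Seeds of the varieties Bass, Harrington, Stirling and Baudin were germinated in the dark at 21 °C, and RNA of their embryos was sequenced at 48 h and 24 h after oligo-dT selection. There was 1 library for each variety and time, so no variety had a replicate at a time, and n below is the 4 varieties, whose spread includes their genetic differences. No other treatment or genetic change is given in the labels, and all libraries were aligned to the genome of another variety, Morex. Each list describes an event by 3 exons, namely the constitutive exon on the far side of the intron, the annotated exon with the affected site and the alternative form of that exon, and gives for each a mean read depth that is not scaled for library size. It gives no reads per splice junction, and a gene missing from a list had no event called there, which is not a measured 0. The 8 libraries held between 1711 (Harrington, 48 h) and 2537 (Bass, 24 h) listings. Only genes with a listed event are in the files, and the word lists for embryo and endosperm had too few hits to check the tissue. Of the 96 described multi-event genes, 2 carried a word of the embryo list, the late embryogenesis abundant protein MLOC_77777.3 and the lectin MLOC_59149.1, against 1 of 808 other described genes. The endosperm list (hordein, glutelin, amylase, starch synthase) had no hit in multi-event genes and 1 in the others.

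The number of distinct events fell off steeply within the set. There were 103 genes with 5 events, 38 with 6, 29 with 7, 11 with 8, 5 with 9 and 7 with at least 10. The 7 genes were MLOC_64351.2 (14 events), described as a katanin p60 ATPase-containing subunit A-like protein, a kind of enzyme that severs microtubules, MLOC_24334.3 (13), MLOC_17938.4 (12), MLOC_12130.4 (11), MLOC_73576.1 (10), described as the ribosomal protein L17 of the large subunit, MLOC_21728.3 (10) and MLOC_60821.6 (10). Just inside the limit, the 103 genes with 5 events had a median exon depth of 37.1 reads per base, and 60.8% of their events were A3S. Just outside it, the 231 genes with 4 events had a median depth of 41.8 reads per base and 64.3% A3S. The genes on either side of the limit had a median of 3 affected exons.

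The events of a multi-event gene usually lay on several exons. Only MLOC_77840.1 and MLOC_77777.3 had all of their events on 1 annotated exon, 22 genes had them on 2 exons, 63 on 3, 63 on 4, 27 on 5, 12 on 6 and 4 on 7. Of the 722 affected exons, 436 carried 1 event and 103 carried at least 3, with a maximum of 6. Counted by intron, 392 of the 677 affected introns (57.9%) had 1 event, 173 had 2 and 112 had at least 3, with a maximum of 7. Most events of the gene fell on a single intron in 69 genes, and no intron had more than 1 event in 15 genes. The genes therefore ranged between a single crowded intron and events scattered along the transcript.

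MLOC_5053.2 was a gene of the first kind. It is described as a far upstream element-binding protein, a family that binds single-stranded nucleic acids, and all 7 of its events (2 A3S and 5 A5S) used 1 intron of 2354 nt on the plus strand, LG04 37990282 to 37992635 of the Morex assembly. The alternative acceptors lay 86 and 1583 nt downstream of the annotated donor, and the alternative donors lay 875, 1594, 1698, 1847 and 2136 nt downstream of it. The donor at 1698 nt was listed in 7 libraries and the acceptor at 1583 nt in 5, whereas the other 5 sites were listed in 1 library each. The acceptor at 86 nt adds 2269 nt to the annotated exon, the largest change in exon length among the multi-event genes.

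At the other end stood 3 of the 4 genes with 7 affected exons, MLOC_67779.1, MLOC_10482.5 and MLOC_66422.2, each with 7 events. MLOC_67779.1 is described as a cullin-associated NEDD8-dissociated protein, a regulator of ubiquitin ligases, and 6 of its 7 events were listed in 1 library only. The exception, an acceptor 28 nt inside the exon at LG02 18176991 to 18177159, was listed in 5 libraries. MLOC_10482.5, described as the rRNA biogenesis protein RRP5, likewise had 6 of 7 events in 1 library each. In MLOC_66422.2, a putative WD repeat-containing protein, 1 donor 39 nt inside its exon at LG02 3556098 to 3556213 was listed in all 8 libraries, another in 4, and the remaining 5 events in 1 each. Scattered genes could thus hold a recurrent site beside sites seen a single time.

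The 2 single-exon genes had short steps between sites. In MLOC_77777.3, the late embryogenesis abundant protein, 5 acceptors shortened the same exon (LG02 146330778 to 146331302) by 3, 6, 15, 33 and 66 nt, all multiples of 3. The acceptor at 6 nt was listed in all 8 libraries, the one at 3 nt in Stirling and Baudin at 24 h, and the other 3 in 1 library each at 48 h. In MLOC_77840.1, 4 acceptors shortened the exon at LG01 11935035 to 11935192 by 3, 21, 24 and 27 nt, and 2 donors at its other end changed it by -79 and 4 nt. Its exon depth was between 420 and 1199 reads per base in the libraries that listed an event.

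Both types met in most of these genes. A3S made up 720 of the 1159 distinct events (62.1%) and A5S 439 (37.9%), against 66.3% A3S among the events of the other 4441 genes. In 170 genes both types were listed, 19 genes had A3S alone and 4 had A5S alone. Both types are more likely to be met in a gene with more events, and the matching share of genes with fewer events is not given. A3S events outnumbered A5S events in 135 genes, the reverse held in 51, and the 2 types were equal in 7. The 4 genes with A5S alone, MLOC_66332.1, MLOC_69391.2, MLOC_4508.2 and MLOC_7234.1, had 5 events each. In MLOC_69391.2, 4 of the 5 donors belonged to 1 exon (LG01 2595823 to 2596044) and changed its length by 55, 43, -9 and -38 nt. In MLOC_4508.2, described as Protein SYS1, a protein of Golgi trafficking in yeast, 1 donor 16 nt inside the exon at LG04 33335294 to 33335517 was listed in 6 libraries and 3 of the others in 1 library each. Among genes with A3S alone, MLOC_52073.1 had 8 acceptors on 4 exons, MLOC_70585.1, described as histone deacetylase 2b, a plant chromatin enzyme, had 6 on 4 exons, and MLOC_29149.7 had 6 on 3 exons.

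A3S and A5S often fell on the same intron. This was so for 146 of the 677 affected introns (21.6%), which belonged to 122 of the 193 genes, and for an intron of 364 of the 1798 other genes with 2 to 4 events. In 34 introns of 32 multi-event genes (16.6%), an alternative acceptor lay upstream of an alternative donor within the intron, so that the stretch between them was bounded by an acceptor and a donor as an exon is. The same arrangement was found in 52 of the 1798 other genes with 2 to 4 events (2.89%). A gene with more events has more pairs of sites that could be placed in this way, and the shares were not tested. The shortest stretch of each intron had a median of 83.5 nt and the stretches ranged between 12 and 2051 nt. In 28 of the 34 introns, both sites were listed in at least 1 library in common. The lists do not join junctions, so whether an acceptor and a donor were used in 1 transcript is not known.

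**Figure D1:**
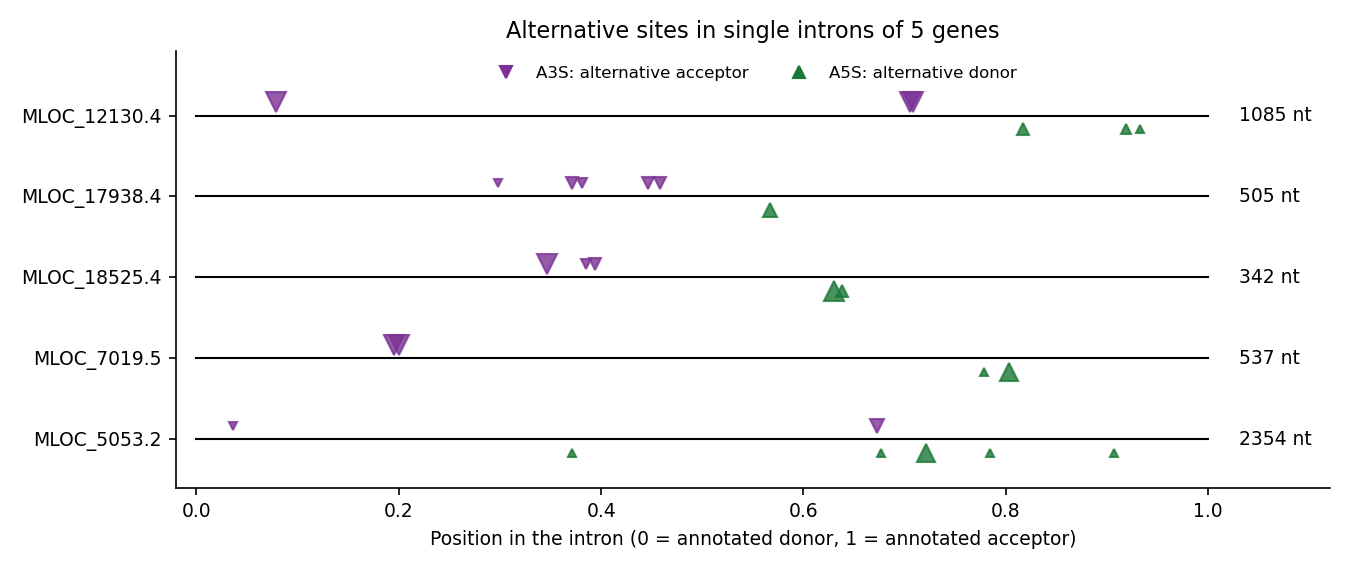
Alternative sites in the intron with the most events of 5 multi-event genes, placed by their relative position between the annotated donor (0) and the annotated acceptor (1), with the intron length at the right. Triangles above the line are alternative acceptors, those below it are alternative donors, and a larger triangle means more libraries (1 to 8). In MLOC_12130.4, MLOC_17938.4, MLOC_18525.4 and MLOC_7019.5 every alternative acceptor lies upstream of every alternative donor, while the sites of MLOC_5053.2 alternate.

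MLOC_12130.4 had 11 events on 6 exons, and 6 of them used 1 intron of 1085 nt on the plus strand, LG10 73995656 to 73996740. The 3 alternative acceptors of this intron, 86, 766 and 769 nt downstream of the annotated donor, were listed in all 8 libraries. The 3 alternative donors lay further downstream, at 887, 998 and 1013 nt, and were listed in 4, 3 and 1 libraries, all of them among Bass at both times, Stirling at 24 h and Baudin at 24 h. The fourth event in all 8 libraries was an acceptor 3 nt upstream of the exon at LG10 73995579 to 73995655, just before this intron. No other gene of the set had 4 events in all libraries.

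The exon downstream of that intron in MLOC_12130.4 was read at moderate depth. It had 12.2, 15.4, 11.6 and 16.9 reads per base at 48 h in Bass, Harrington, Stirling and Baudin, against 22.0, 15.6, 17.1 and 16.8 reads per base at 24 h in the same varieties. The 2 times overlapped, with the lowest values in Stirling and Bass at 48 h and the highest in Bass at 24 h. The stretch between the alternative acceptor at 766 nt and the annotated acceptor was read more deeply than the annotated exon in every library, with a depth ratio of 1.67, 1.26, 1.71 and 1.11 at 48 h against 1.96, 1.65, 1.85 and 1.28 at 24 h. The remaining 4 events of MLOC_12130.4 were listed in 1 or 2 libraries each.

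MLOC_17938.4 had 12 events on 5 exons, and 6 of them used 1 intron of 505 nt on the plus strand, LG10 138190063 to 138190567. Its 5 alternative acceptors lay 151, 188, 193, 226 and 232 nt downstream of the annotated donor, and its alternative donor lay at 287 nt. Of its 35 listings, 2 were at 48 h, both in Stirling, and 33 were at 24 h, of which Bass had 10, Harrington 6, Stirling 8 and Baudin 9. The exon downstream of the intron had a depth of 6.80 reads per base in Stirling at 48 h, against 38.3, 44.8, 53.6 and 42.9 reads per base at 24 h in Bass, Harrington, Stirling and Baudin. No depth is given at 48 h for the other varieties, because no event of the gene was listed there. Fewer listings at 48 h thus went with a lower depth in the 1 library that gives a value, and the part of depth in the listing was not tested.

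MLOC_64351.2, the katanin-like gene with the most events, had 9 A3S and 5 A5S events on 6 exons and none in all 8 libraries. It had 7, 10, 4 and 7 events at 48 h in Bass, Harrington, Stirling and Baudin, against 5, 1, 8 and 2 at 24 h, more at 48 h in 3 of 4 varieties and fewer in Stirling. Its most deeply read annotated exon, LG01 132530342 to 132530503 on the minus strand, had 613, 732, 493 and 562 reads per base at 48 h in the same varieties, against 134 in Bass and 512 in Stirling at 24 h. Harrington and Baudin at 24 h did not list that exon. The 3 acceptors of the exon at LG01 132534067 to 132534155 changed its length by 14, -11 and -14 nt and were listed in 3, 6 and 7 libraries.

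**Figure D2:**
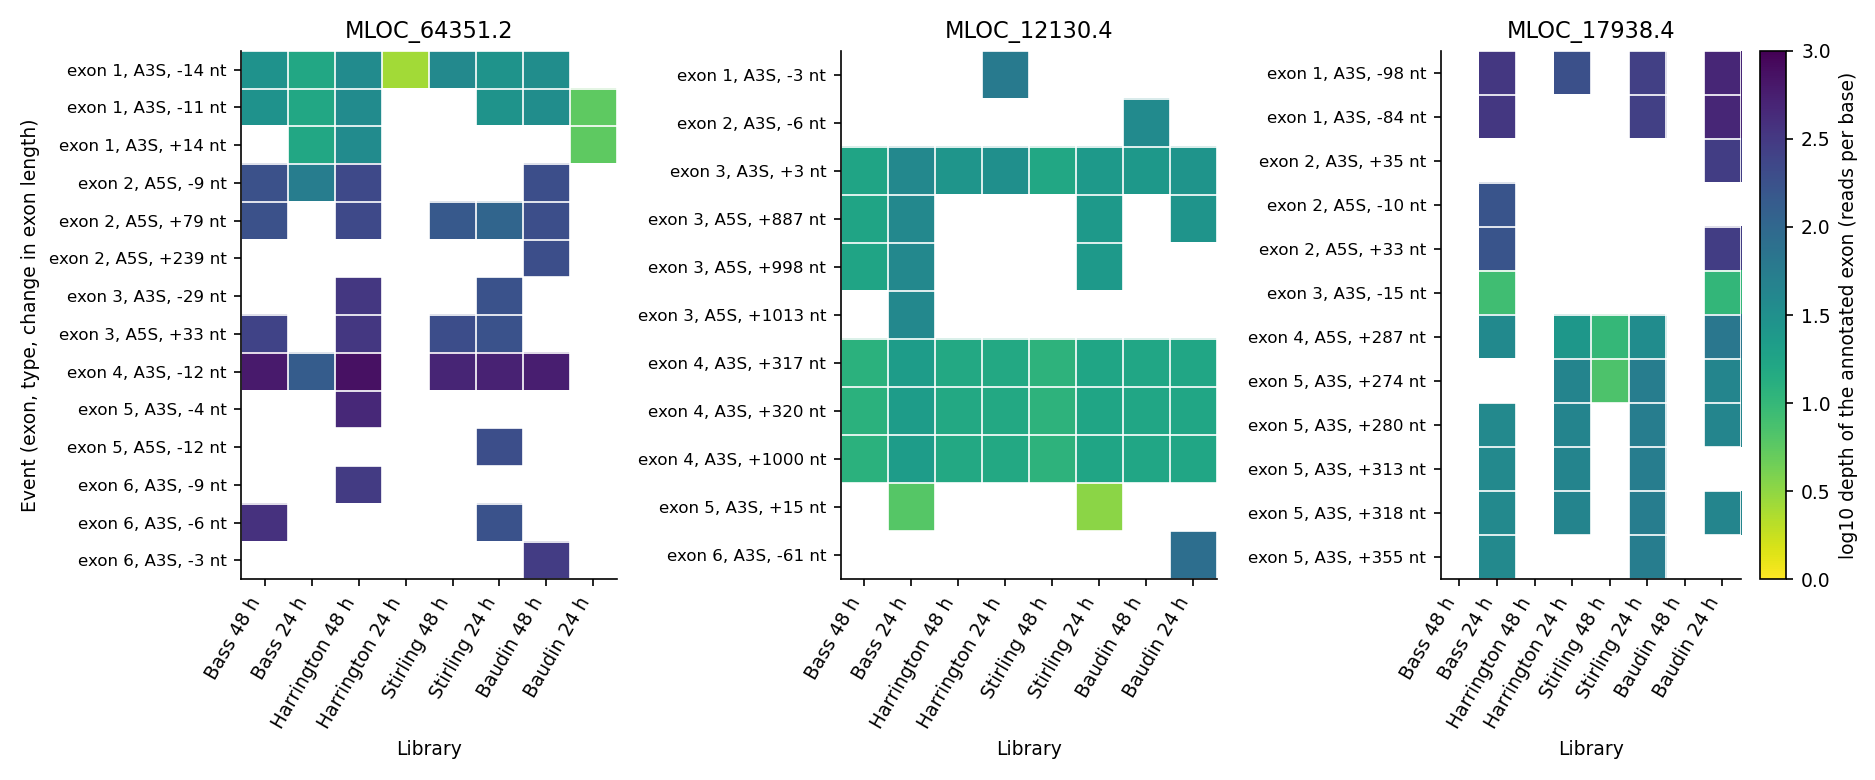
Events of MLOC_64351.2, MLOC_12130.4 and MLOC_17938.4 (rows) by library (columns, with 48 h left of 24 h within each variety). Exons are numbered in transcript order among those with an event, the change in exon length is in nt, colour is the log10 depth of the annotated exon and white means that the event was not listed. MLOC_12130.4 has 4 rows filled in all 8 libraries, and in MLOC_17938.4 the 48 h columns hold 2 listings, both in Stirling.

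The other genes with at least 9 events differed in how the events lay. MLOC_24334.3 had 13 events on 5 neighbouring exons within LG11 120011230 to 120012750 on the plus strand, where the affected introns were 73 to 118 nt long. It had 3, 4, 3 and 4 events at 48 h in Bass, Harrington, Stirling and Baudin, against 4, 2, 7 and 6 at 24 h. Of its events 7 were listed in 1 library and none in more than 5, so that different libraries listed different sites of the same short introns. Its exon from 120011896 to 120011982 alone had an acceptor 17 nt upstream of it and 3 donors that changed it by -13, -8 and 38 nt.

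MLOC_21728.3 had 10 events on 6 exons of LG11, with a recurrent acceptor 6 nt inside the exon at 40515436 to 40515549 in 7 libraries and another, 30 nt inside the exon at 40513485 to 40513589, in 6. The other 8 events of MLOC_21728.3 were listed in 1 or 2 libraries. MLOC_63089.10 had 9 events on 6 exons of LG01, and 3 of them made up 21 of its 27 listings. These were donors 41 and 24 nt beyond the exon at 121158062 to 121158148, in 8 and 6 libraries, and an acceptor 23 nt upstream of the exon at 121157545 to 121157742, in 7. In MLOC_62965.1, with 9 events on 3 exons of LG01, only a donor 180 nt beyond the exon at 120211795 to 120211862 reached 5 libraries. A few recurrent sites thus stood beside many sites seen in 1 or 2 libraries in each of these genes.

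The RNA processing word list held 3 multi-event genes, MLOC_18525.4, MLOC_54875.3 and MLOC_12901.2, and an acceptor upstream of a donor in 1 intron was found in MLOC_18525.4 and MLOC_54875.3 but not in MLOC_12901.2, described as an ATP-dependent RNA helicase, whose 5 events lay on 5 introns. MLOC_18525.4, described as an RNA-binding protein, had 5 of its 7 events on an intron of 342 nt on the minus strand, LG04 114097728 to 114098069. An acceptor 119 nt and a donor 216 nt downstream of the annotated donor were listed in all 8 libraries, and further acceptors at 132 and 135 nt and a donor at 219 nt were listed in 3 to 4 libraries. The depth of the stretch that the recurrent donor adds, relative to the shared part of the exon, was 2.04, 1.77, 1.66 and 1.99 at 48 h in Bass, Harrington, Stirling and Baudin, against 1.17, 1.64, 1.91 and 1.18 at 24 h. The 2 times overlapped, and the difference did not pass the test of site use between the times (limma, log2 difference 0.37, SE 0.22, Benjamini-Hochberg adjusted p = 0.393, higher at 48 h in 3 of 4 varieties). That stretch also holds the acceptors at 119, 132 and 135 nt, so its ratio is not a share of 1 form. MLOC_54875.3, described as an arginine/serine-rich splicing factor, had a donor in 7 libraries and an acceptor in 3 that bounded a stretch of 342 nt in an intron of 1036 nt. MLOC_62089.1, described as a polypyrimidine tract-binding protein, a repressor of splice sites in animals and plants, had such a stretch of 65 nt in an intron of 1627 nt, and a donor 47 nt inside another exon was listed in all 8 libraries. MLOC_44001.3, described as a LUC7 related protein, a family whose yeast member belongs to the U1 particle that recognises donors, had 5 events on 3 exons, with 2 of them in all 8 libraries. MLOC_62089.1 and MLOC_44001.3 were picked for their arrangement after the values were seen, so they do not add to a share of RNA processing genes with it. MLOC_64063.2, described with an RNA binding domain but also outside the word list, did not have an acceptor upstream of a donor in 1 intron.

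Other genes with recurrent sites had no description. In MLOC_7019.5, 2 acceptors 105 and 108 nt downstream of the annotated donor of a 537 nt intron were listed in all 8 libraries, and a donor at 432 nt in 7. The annotated exon behind this intron had a depth of only 3 to 8.04 reads per base, while the stretch in the intron had 12.7 to 26.0 reads per base. MLOC_44460.2 and MLOC_65481.1 had the same arrangement, with both kinds of site listed together in 6 libraries each.

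A minority of events recurred in every library. Of the 1159 distinct events, 636 (54.9%) were listed in 1 library, 205 in 2, 92 in 3, 70 in 4, 41 in 5, 34 in 6, 31 in 7 and 50 (4.31%) in 8. Among the events of the other genes, 63.6% were listed in 1 library and 1.72% in 8. At the limit the shares were closer, at 55.7% and 3.69% for genes with 5 events and 58.3% and 2.71% for genes with 4. Annotated exons of multi-event genes had a median of 41.3 reads per base for events in 1 library and 40.3 for events in 8, and those of the other genes had 23.6 for events in 1 library and 43.0 for events in 8. In the other genes recurrent events thus lay on deeper exons, while in multi-event genes events in 1 library lay on exons as deep as the recurrent ones. These medians were not tested. If an event had to be listed in at least 2 libraries to be counted, only 24 genes kept 5 events.

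**Figure D3:**
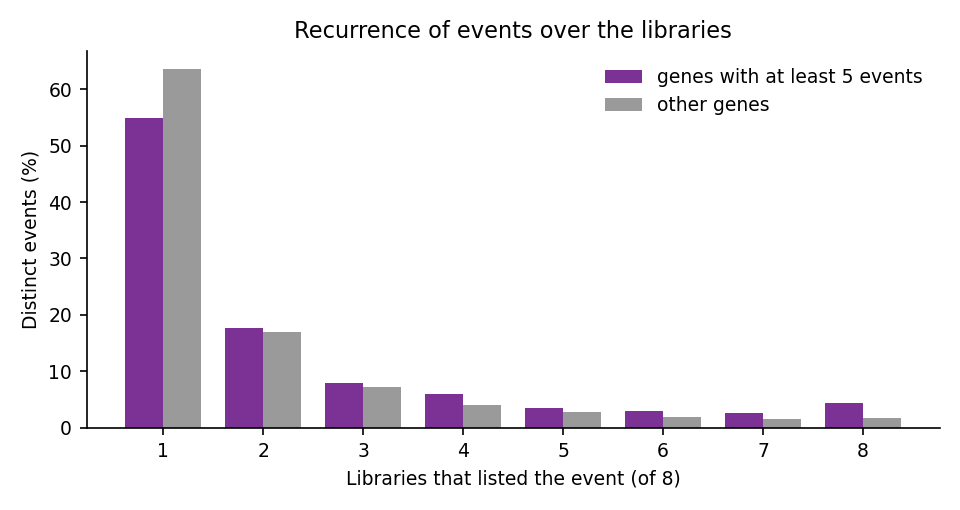
Share of distinct events (%) by the number of libraries, of 8, that listed them, for genes with at least 5 distinct events (left bars, 1159 events) and the other genes (right bars, 7166 events). In both, events in 1 library are the largest class, at 54.9% and 63.6%, and events in 8 libraries make up 4.31% and 1.72%.

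The recurrent events were spread over 36 genes, and 11 genes had at least 2 of them. After MLOC_12130.4 with 4, MLOC_51316.3 had 3, all acceptors of 1 exon (LG01 35783024 to 35783122) that changed its length by 58, -2 and -9 nt. This gene had 5 events on 1 intron of 464 nt, and each was listed in at least 7 libraries. Its annotated exon had 204, 246, 167 and 201 reads per base at 48 h in Bass, Harrington, Stirling and Baudin, against 63.1, 55.7, 152 and 59.5 reads per base at 24 h, so the 2 times did not overlap in that unscaled depth. In its constitutive exon the times overlapped, with 14.1 reads per base in Baudin at both times and 16.7 in Stirling at 24 h. That exon did not pass the depth test between the times (limma, Benjamini-Hochberg adjusted p = 0.0794). The depth of the 9 nt that the last acceptor removes, relative to the shared part, was 0.676, 0.642, 0.720 and 0.657 at 48 h and 0.667, 0.793, 0.651 and 0.690 at 24 h, with overlap between the times. MLOC_64646.1, MLOC_36345.3 (described as a transcription factor) and MLOC_54389.1 (a peptidyl-prolyl cis-trans isomerase, an enzyme of protein folding) had 2 recurrent events each. MLOC_12272.1 and MLOC_38749.13, neither with a description, also had 2. In MLOC_12272.1 these were acceptors 17 and 20 nt upstream of 1 exon, LG10 75431375 to 75431463, and in MLOC_38749.13 they were acceptors 23 and 36 nt inside 2 different exons of LG15. MLOC_36345.3 had an acceptor 79 nt upstream of the exon at LG15 62380010 to 62380093 and a donor 6 nt inside the exon at 62381001 to 62381072 in all libraries. In MLOC_64646.1 they were an acceptor and a donor at the opposite ends of 1 exon, LG01 135905994 to 135906140, 13 and 4 nt inside it.

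At the other extreme, 8 genes had each of their events in 1 library only. MLOC_44154.1 and MLOC_55542.1 had 7 such events each. MLOC_55542.1, described as serine carboxypeptidase 1, a protease family of the germinating cereal grain, had its 7 events on 6 exons, all at 24 h, with 3 in Bass, 1 in Harrington, 3 in Baudin and none in Stirling. The depth of its annotated exons ran between 4.64 and 740 reads per base. MLOC_44154.1 had 1 event at 48 h, in Stirling, and 6 at 24 h, with depths between 193 and 351 reads per base.

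The 2 genes with the highest median depth had no event in more than 5 libraries. MLOC_73576.1, the ribosomal protein L17 gene, had 10 events, of which 7 were listed in 1 library. Its exon at LG01 6497619 to 6497721 was read at 5156 (Bass), 5251 (Harrington) and 4406 (Stirling) reads per base at 48 h, against 5930 (Bass), 5356 (Stirling) and 5041 (Baudin) at 24 h. On that exon 5 acceptors, 7, 21, 32, 46 and 54 nt inside it, were listed in Bass or in Stirling at 24 h, and a donor 4 nt beyond it in 5 libraries. MLOC_64594.1 held the highest depth of the set, 10389 reads per base in Harrington at 48 h, and had 6 events on the 2 exons beside 1 intron of 122 nt. Both genes had most of their sites within 60 nt of the annotated one. Over all 193 genes, the median depth of a gene ranged between 4 and 8505 reads per base, 7 genes lay above 1000 and 23 below 10.

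The sites of multi-event genes lay a median of 21 nt from the annotated site (interquartile range 7 to 63 nt), against 16 nt in the other genes. Distances of at least 100 nt made up 215 events (18.6%), against 11.8% in the other genes, and distances of 3 nt made up 63 events (5.44%), against 7.52%. A5S sites lay further away (median 29 nt) than A3S sites (19 nt). The exon became longer in 40.5% of the events, against 33.6% in the other genes. The share of distinct events whose distance was a multiple of 3 was 38.1%, against 37.4% in the other genes, and for events in all 8 libraries it was 46.0%, against 66.7%. Counted per library, 40.9% ± 1.99 of multi-event gene listings and 41.9% ± 1.26 of the other listings had such a distance (SD, n = 4 varieties). The difference of -1.03 percentage points was within the spread between varieties (exact sign-flip permutation test, two-sided, p = 0.50). Whether an exon is coding was not looked up, so these shares concern length and not the reading frame itself.

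Multi-event genes were read more deeply than all other genes taken as 1 group, although depth did not separate the genes at the limit of 5 events, where the median was 37.1 reads per base for genes with 5 events and 41.8 for genes with 4. The median depth of the annotated exon over their listings was 38.0, 35.9, 40.5 and 44.0 reads per base at 48 h in Bass, Harrington, Stirling and Baudin, and 42.2, 43.8, 38.5 and 49.3 reads per base at 24 h. For the other genes it was 26.4, 24.0, 25.8 and 25.1 reads per base at 48 h, and 29.0, 30.8, 28.9 and 29.0 reads per base at 24 h. Every library had the higher value in multi-event genes, and no value of one kind reached the other. Averaged over the times, the depth was 41.5 ± 3.42 in multi-event genes and 27.4 ± 0.303 in the other genes, a difference of 14.2 ± 3.66 reads per base (SD, n = 4 varieties, higher in 4 of 4). The exact sign-flip permutation test gave p = 0.125 (two-sided), the smallest value that 4 varieties allow, so it could not reach 0.05. The part of depth in the number of events called was not tested. In bulk RNA, fewer cells of a type and less RNA per cell cannot be told apart.

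**Figure D4:**
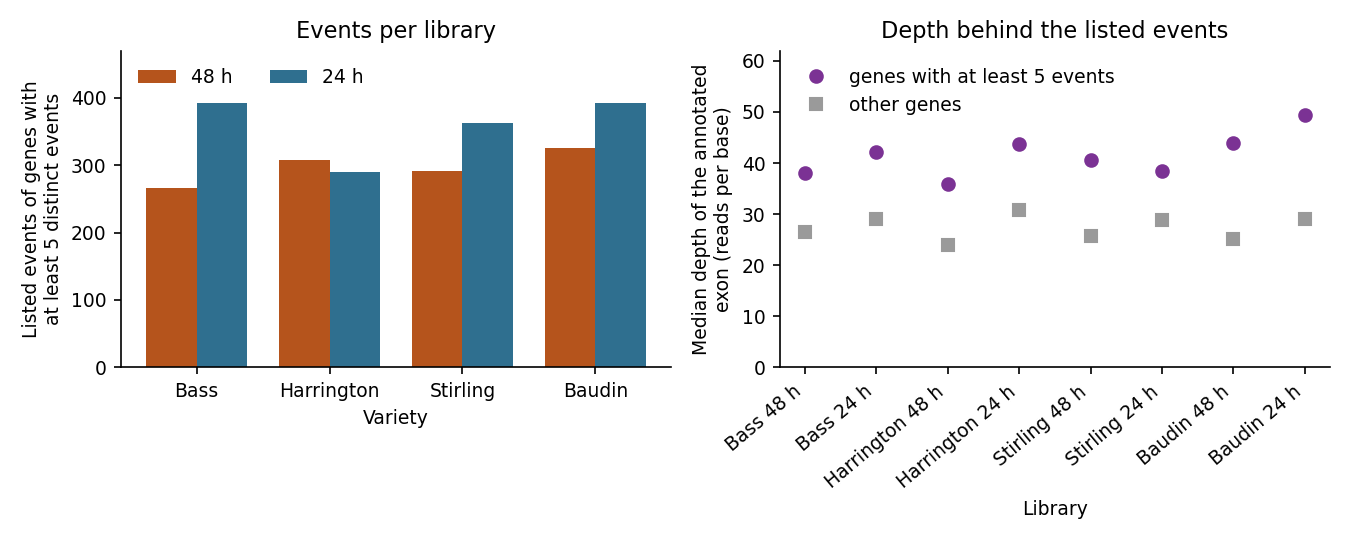
Left, listed events of multi-event genes per library, with 48 h left of 24 h in each variety. Right, the median depth of the annotated exon (reads per base) over the listings of multi-event genes (circles) and of the other genes (squares) in each library. Events were fewer at 48 h in Bass, Stirling and Baudin and more in Harrington, and the circles lie above the squares in all 8 libraries.

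The question of time was whether these genes had fewer or other events at 48 h than at 24 h. The same events chose the genes, so the tests of listings, their share, genes listed and A3S share draw on values of the rule. Their p-values are given as a description, and no conclusion is drawn from them. They had 266, 307, 291 and 326 listings at 48 h in Bass, Harrington, Stirling and Baudin, against 393, 290, 362 and 393 at 24 h. The mean was 297.5 ± 25.4 at 48 h and 359.5 ± 48.6 at 24 h (SD, n = 4), a difference of -62 ± 59.4, with fewer listings at 48 h in 3 of 4 varieties (exact sign-flip permutation test, two-sided, p = 0.25). The listings of the other genes differed by -343 ± 251 (4 of 4 varieties, p = 0.125 in the same exact permutation test). In percent these differences were -17.2 for multi-event genes and -18.6 for the other genes. The share of all listings that fell on multi-event genes was 16.6% ± 1.09 at 48 h and 16.4% ± 0.642 at 24 h (SD, n = 4), and differed by 0.21 percentage points, with a higher share at 48 h in 1 of 4 varieties (exact sign-flip permutation test, two-sided, p = 1). Per library this share ran between 15.4% (95% Wilson interval 13.8 to 17.2, Bass at 48 h) and 17.9% (16.2 to 19.8, Harrington at 48 h), intervals that cover counting error only. The sign of this small difference turned when Harrington was left out, to -0.24.

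The number of multi-event genes with at least 1 listing was 144.5 ± 5.92 at 48 h and 155.5 ± 8.10 at 24 h (SD, n = 4), a difference of -11 with fewer genes at 48 h in 3 of 4 varieties (exact sign-flip permutation test, two-sided, p = 0.25). The share of A3S among their listings was 64.3% ± 1.27 at 48 h and 64.6% ± 3.84 at 24 h (SD, n = 4, exact sign-flip permutation test, two-sided, p = 0.75). The sign of that difference, -0.24 percentage points, turned to 1.62 without Harrington. Neither measure differed between the times by more than the spread between varieties.

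Many events were listed at only 1 of the times. Of the 1159 distinct events, 317 were listed only at 48 h, 472 only at 24 h and 370 at both times. Among the 523 events in at least 2 libraries the numbers were 49, 104 and 370. The lists as a whole were longer at 24 h, and the matching numbers of the other genes are not given, so these counts describe the set only. An event listed at 48 h was listed again at 24 h of the same variety in 44.6% ± 6.10 of cases, and an event at 24 h was listed at 48 h of the same variety in 36.9% ± 2.86 (SD, n = 4). In another variety at the same time, averaged over the other 3 varieties, it was listed in 46.2% ± 2.83 of cases at 48 h and 44.3% ± 4.32 at 24 h. For the other genes, the share found at the other time of the variety was 33.8% ± 2.27 for events at 48 h and 27.7% ± 2.37 for events at 24 h. In another variety at the same time, it was 33.0% ± 0.877 at 48 h and 33.5% ± 3.07 at 24 h for the other genes. Events of multi-event genes were thus found again more often than those of the other genes both at the other time and in other varieties, as a description with no test.

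Of the 193 genes, 6 had listings only at 48 h. MLOC_75057.2 had the most, 8 distinct events in 3, 5, 2 and 6 listings in Bass, Harrington, Stirling and Baudin. The acceptor 14 nt inside its exon at LG01 7873076 to 7873162 was listed in all 4 varieties, with exon depths of 68.1, 71.0, 44.6 and 45.0 reads per base. The others were MLOC_29149.7, MLOC_35254.2, MLOC_4986.2, described as an amine oxidase, MLOC_63588.1, described as a cyclopropane-fatty-acyl-phospholipid synthase, and MLOC_75013.2, described as ARGONAUTE 1, the protein that carries small RNAs in gene silencing. Listings only at 24 h were found for 8 genes, among them 2 serine carboxypeptidases, MLOC_55542.1 and MLOC_65439.1, and a second far upstream element-binding protein, MLOC_60294.2. These genes were picked by their listings, so no test is given, and the matching shares of the other genes are not given either.

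Some genes at both times were strongly one-sided. MLOC_60821.6 had 2, 8, 2 and 5 listings at 48 h in Bass, Harrington, Stirling and Baudin, against 1 listing at 24 h, in Stirling. MLOC_64594.1 had 11 listings at 48 h and 2 at 24 h, both in Baudin, where its exon was read at 9967 reads per base at 48 h against 789 at 24 h. MLOC_8169.1, described as a metallothionein, a small metal-binding protein, had 10 listings at 48 h and 4 at 24 h. In the other direction, MLOC_12432.4, described as an RNA polymerase II C-terminal domain phosphatase-like protein, had 1 listing at 48 h, in Stirling, against 5, 3, 1 and 5 listings at 24 h. In all, 9 genes had more events at 48 h in every variety and 15 had more at 24 h in every variety, while the lists as a whole were longer at 24 h. The matching shares of the other genes are not given, so these counts describe the set only.

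The depth of the constitutive exon, the exon on the other side of the intron, was tested between the times for exons listed in all 8 libraries. Depths were scaled by the median of each library, and limma was fitted with variety as a block. Of 177 exons tested, 22 (12.4%) passed a Benjamini-Hochberg adjusted p of 0.05, with 11 higher at 48 h (6.21%) and 11 lower (6.21%). Of these exons 51 belonged to 43 multi-event genes, and 4 of them were higher and 1 lower at 48 h. The share called among the exons of multi-event genes was 9.8%, below that of all exons. An unadjusted p under 0.05 in limma was found for 18 of the 51, against 62 of all 177, a similar share. The median log2 difference was -0.15 for these 51 exons and -0.08 for all 177.

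The lectin gene MLOC_59149.1 had the smallest adjusted p. Its exon was read at 501, 1272, 618 and 874 reads per base at 48 h in Bass, Harrington, Stirling and Baudin, against 131, 188, 301 and 136 reads per base at 24 h, and the times did not overlap. After scaling the log2 difference was 2.30 (SE 0.34, limma, Benjamini-Hochberg adjusted p = 0.0158). The katanin-like gene MLOC_64351.2 had 133, 200, 147 and 173 reads per base at 48 h against 27.6, 28.5, 123 and 24.0 at 24 h, with Stirling at 24 h close to the 48 h values (log2 difference 2.22, SE 0.46, limma, adjusted p = 0.0313). Its exon depth was higher at 48 h in 4 of 4 varieties, while its number of events was higher in 3.

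The late embryogenesis abundant protein MLOC_77777.3 had 736, 811, 654 and 14.0 reads per base at 48 h in Bass, Harrington, Stirling and Baudin, against 88.4, 131, 458 and 3.48 at 24 h. In this constitutive exon Baudin was far below the other varieties at both times, whereas the annotated exon of MLOC_77777.3 was read in Baudin at 2098 reads per base at 48 h and 310 at 24 h. The log2 difference was 2.21 (SE 0.43, limma, adjusted p = 0.0313), and without the variety block the call was lost (adjusted p = 0.350). MLOC_44719.1, which has no description, had 47.8, 60.9, 50.6 and 49.8 reads per base at 48 h against 35.5, 29.6, 30.3 and 23.7 at 24 h (log2 difference 1.01, SE 0.20, adjusted p = 0.0313 in limma).

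The peroxidase gene MLOC_87.1, of a family that acts on cell wall and defence compounds, was the only multi-event gene with a lower exon depth at 48 h among those that passed. In Bass, Harrington, Stirling and Baudin it had 161, 81.1, 124 and 136 reads per base at 48 h, against 272, 403, 267 and 506 at 24 h, without overlap (log2 difference -1.32, SE 0.28, limma, adjusted p = 0.0313). These 5 calls did not hold with every variety left out. Without Bass or without Harrington none of the 177 exons passed, and MLOC_44719.1 (adjusted p between 0.0641 and 0.0952 in limma) and MLOC_87.1 (between 0.0579 and 0.0844) lost their calls whichever variety was left out. MLOC_59149.1, MLOC_64351.2 and MLOC_77777.3 passed without Stirling and without Baudin. All 5 kept their direction. Without scaling, the median log2 difference of all exons was -0.28 and the calls were 11 higher and 30 lower at 48 h, with 4 higher and 8 lower among multi-event genes.

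**Figure D5:**
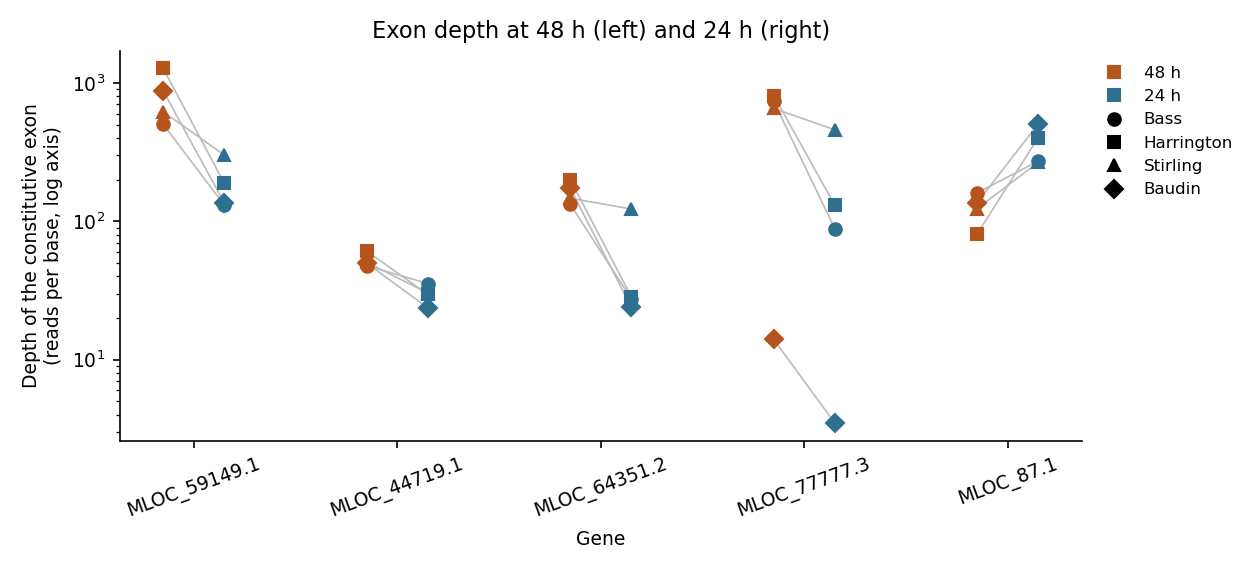
Depth of the constitutive exon (reads per base, log axis, unscaled) of the 5 multi-event genes that passed the test between times, with 48 h left of 24 h and a line joining the libraries of a variety. In MLOC_59149.1, MLOC_64351.2, MLOC_77777.3 and MLOC_44719.1 every variety is higher at 48 h, in MLOC_87.1 every variety is lower, and Baudin lies far below the other varieties in this exon of MLOC_77777.3.

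Site use was examined through a depth ratio, for events listed in all 8 libraries. It was the log2 ratio of the depth between the sites to the depth of the shared part of the exon. Where the alternative site lengthens the exon, the stretch between the sites is part of the alternative form but lies inside the annotated intron. Reads of a retained intron or of other sites in that stretch would add to its depth, and their part was not tested. The ratio exceeded 1 in some events, so it is not a share of 1 form. For the acceptor of MLOC_7019.5 at 108 nt it ran between 2.61 and 4.90, both in Harrington. Where the alternative site shortens the exon, the stretch between the sites belongs to the annotated form, and a higher ratio goes with less of the alternative form. The sign was not turned for such events, so the ratio gives no common direction of site use. Of 136 A3S events none passed at 48 h against 24 h in limma (0% of all tested), with 15 at an unadjusted p under 0.05. Of them 38 belonged to 28 multi-event genes, and 1 of these had an unadjusted p under 0.05, the acceptor of MLOC_12130.4 at 3 nt. Its ratio was 0.619, 0.784, 0.726 and 0.698 at 48 h in Bass, Harrington, Stirling and Baudin, against 0.826, 0.890, 0.890 and 0.870 at 24 h, lower in 4 of 4 varieties without overlap (log2 difference -0.30, SE 0.11, Benjamini-Hochberg adjusted p = 0.399). The stretch behind this ratio is 3 nt long, so few bases carry it.

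Of 37 A5S events, 2 passed (5.41%, both with a lower ratio at 48 h), and 1 of the 12 in multi-event genes was among them. This was a donor of MLOC_11028.3, 51 nt beyond the exon at LG10 62011563 to 62012015 on the plus strand, in an intron of 137 nt. The stretch of 51 nt lies inside that intron, so reads of a retained intron would add to its depth. Their part in the ratio was not tested. The ratio of this event was 0.711, 0.630, 0.607 and 0.414 at 48 h in Bass, Harrington, Stirling and Baudin, against 1.03, 1.05, 1.02 and 0.589 at 24 h. The log2 difference was -0.63 (SE 0.093, limma, adjusted p = 0.0344), with a lower ratio in 4 of 4 varieties. The times overlapped through Baudin, whose ratio at 24 h was below that of 3 varieties at 48 h. The call was lost when any 1 variety was left out, with adjusted p between 0.144 and 0.171, and without the variety block (adjusted p = 0.271). MLOC_11028.3 had 6 events on 3 exons, and a donor 136 nt inside the same exon was listed in 4 libraries.

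The varieties shared a part of the events. Of the 1159 distinct events, 166 were listed in all 4 varieties and 661 in 1 variety alone. Matching numbers for the other genes are not given, so these counts also describe the set only. Baudin had 584 distinct events of multi-event genes and 213 found in no other variety, Bass 523 and 158, Stirling 513 and 147, and Harrington 481 and 143. The order followed the number of listings of each variety in these genes over both times. With 1 library for each variety and time, a difference between varieties and a difference between libraries cannot be told apart. Of the 193 genes, 63 were listed in all 8 libraries, 41 in 7, 22 in 6, 25 in 5, 28 in 4, 12 in 3 and 2 in 2.

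By description, which the study's tables give for 96 of the 193 genes, the set was mixed. Kinases and phosphatases made up 11 of the 96 (11.5%), against 8.66% of 808 described other genes. Ribosomal proteins made up 6 (6.25%, against 3.59%), among them MLOC_55662.1 (40S subunit protein SA, 7 events) and MLOC_55595.2 (40S subunit protein S7, 7 events), and their listings had a median depth of 726 reads per base. Of the ribosomal protein genes, MLOC_55595.2 had an acceptor 4 nt inside the exon at LG01 59645254 to 59645377 in all 8 libraries and a donor 31 nt inside another exon in 6, while MLOC_55662.1, read at 613 to 2731 reads per base, had 5 of its 7 events in 1 library each. MLOC_17719.1 (ribosomal protein S27) and MLOC_6549.1 (60S subunit protein L34) had 1 event in 6 libraries each, and MLOC_17150.2 (60S subunit protein L7-2) had none in more than 2. RNA processing words were found for 3 genes (3.13%, against 2.48%), oxidoreductase words for 4 (4.17%, against 3.47%) and transporter words for 3 (3.13%, against 2.60%). Translation factor words were found for 2 (2.08%, against 1.36%) and ubiquitin and proteasome words for 2 (2.08%, against 3.34%). Transcription factor words were found for 1 (1.04%, against 3.84%) and chaperone words for none (against 0.495%). All of these groups are hits of words in a description and not full counts of a function. The lipoxygenase MLOC_54031.1, for example, was not among the oxidoreductase hits. The ubiquitin hits included MLOC_20377.3, described as the ubiquitin-like modifier-activating enzyme ATG7. The study's tables cover only part of the genes, so these shares describe the genes with a description.

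Among the enzymes with many events, MLOC_54031.1, described as a lipoxygenase, an enzyme that oxidises fatty acids in germinating grain, had 8 events on 4 exons. Its exons were read at 194 to 1918 reads per base, and an acceptor 16 nt upstream of the exon at LG01 47628571 to 47628866 and a donor 221 nt beyond the same exon were listed in 5 libraries each. MLOC_57406.1, described as ubiquitin-conjugating enzyme E2 7, had 6 A5S and 2 A3S events, and the acceptor 3 nt inside its exon at LG01 74344870 to 74344944 was listed in all 8 libraries. MLOC_13742.1, described as aspartate aminotransferase, an enzyme of amino acid metabolism, had 7 events on 4 exons and none in more than 3 libraries. MLOC_69212.1 (Protein kinase 1) and MLOC_61145.2 (a pantothenate kinase, the first step of coenzyme A synthesis) had 8 events each, of which 2 and 4 were listed in 1 library.

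Among the kinases, MLOC_14599.6, described as Casein kinase I-like, a family of serine and threonine kinases, had 4 of its 7 events as acceptors of 1 exon, LG10 100220714 to 100221001. They shortened the exon by 8, 31, 62 and 65 nt and were listed in 8, 5, 1 and 3 libraries. In MLOC_59092.8, described as a protein kinase, 5 events lay on 4 exons and none was listed in more than 3 libraries. The peroxidase gene MLOC_87.1 had 7 events, and 2 acceptors 270 and 207 nt upstream of its exon at LG03 86145597 to 86146006 were listed in 8 and 6 libraries, while the other 5 were listed in 1 library each. The lectin gene MLOC_59149.1 had a donor 44 nt inside the exon at LG01 88596186 to 88596593 in all 8 libraries and 4 further events in 1 or 2 libraries.

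The genes lay on 10 linkage groups of the Morex assembly. LG01 held 73 of them (37.8%, against 36.3% of the other genes), LG10 28 (14.5%, against 15.7%), LG02 26 (13.5%, against 14.5%) and LG04 25. No listed exon of a multi-event gene overlapped a listed exon of another gene. Their annotated exons had a median length of 127 nt, against 157 nt for the events of other genes, and the affected introns had a median of 153 nt, against 165 nt.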

How the data were processed

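RNA of germinating embryos was sequenced by the authors as Illumina paired-end libraries, 1 for each of 4 varieties at 48 h and 24 h. The authors aligned reads to the Morex genome with SOAP2 and called junctions with SOAPsplice, and the deposited lists hold, for each A3S or A5S event, the start, end, mean depth and covered share (a fraction between 0.5 and 1) of 3 exons. These deposited values are depths and not counts, and are not scaled. The members and lists of words were chosen with earlier results of these data known. The genes named by rule are the 2 examples, the 10 with the most events, the 5 with the most events in all libraries, the 3 with the most exons, those on a single exon, up to 3 with each type alone, up to 5 for each limma test by adjusted p, and the described genes with the most events or in a word list. MLOC_5053.2, MLOC_7019.5, MLOC_44460.2, MLOC_65481.1, MLOC_62089.1, MLOC_44001.3, MLOC_64063.2, MLOC_64594.1, MLOC_12272.1, MLOC_38749.13 and the genes named for time or for events in 1 library were chosen after their values were seen.

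Events were counted with Python 3.11.15 and pandas 2.3.3. Differences were tested with exact sign flips over the varieties, and exon depth and site use with limma 3.58.1 in R 4.3.3 on log2(value + 0.5), with Benjamini-Hochberg adjustment over all features tested. Depth between sites came from the 2 forms of the exon, and 68 of 1088 A3S and 15 of 296 A5S values below 0 were set to 0. The functions were tested on simulated data. Libraries pair by variety, as their labels give it. Deviations of paired libraries correlated at 0.04, 0.03, 0.18 and 0.57 in Bass, Harrington, Stirling and Baudin for exon depth, at -0.28 to 0.38 for A3S use and at -0.17 to 0.07 for A5S use. No reference sequence of this assembly was used here, so no sequence is shown.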

Additional observations from a re-analysis of the deposited data

How the results depend on the processing

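The number of genes with at least 5 distinct events, 193, was 424 at a limit of 4 events, 90 at 6 and 24 when an event had to be listed in at least 2 libraries, a setting chosen after seeing the data. It lay between 112 and 133 with each variety left out, was 132 with a depth of at least 10 and stayed 193 when transcript suffixes or the first exon were ignored. The difference in the share of listings between 48 h and 24 h turned to -1.10 percentage points at a limit of 4 events and ran between -0.24 and 0.41 with each variety left out, and the difference in A3S share turned to 0.40 at a depth of at least 10 and ran between -1.96 and 1.62. The other differences kept their sign in all alternatives run. Leaving out 1 variety leaves 3, for which the exact test cannot go below p = 0.25.

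The exon depth test called 22 exons, 41 without scaling and between 0 (without Bass and without Harrington) and 12 (without Baudin) with each variety left out. The A3S usage test called 0 events and between 0 and 1 (without Stirling) with each variety left out. The A5S usage test called 2 events and between 0 and 1 (without Harrington). Varieties pair the libraries, and without this replicate block the tests called 26 exons, 3 A3S events and 0 A5S events, and the exact p-values were 0.114 for listings of multi-event genes, 0.80 for their share, 0.0857 for genes listed and 0.914 for the A3S share. Over all values, 20 alternatives lost a call, 17 moved a count and 4 turned a sign. The other 91 did none of these, but many of them concern differences that passed no test or counts that moved less. Depths without junction reads limit the usage test, and stretches of a few nt rest on few bases.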
